A study of Saccharomyces cerevisiae with 4 samples.

Results

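The transcripts of 5 genes for nuclear messenger ribonucleoproteins and the nuclear pore, DBP2, NAB3, MFT1, GLE2 and NUP1, were followed in RNA recovered with the yeast mRNA export receptor Mex67. They are 5 of 5539 genes with a probe on the array and were chosen by name and because each had a ratio on at least 3 of the 4 arrays. Their ratios were known when they were chosen, so their values describe these arrays, and counts of calls are given as a description, as no evidence for a gene. The study set RNA that co-precipitated with zzMex67 against total RNA of the budding yeast Saccharomyces cerevisiae, both hybridised together on each two-colour array. All 4 arrays form a single group. Their titles carry 2 codes of unstated meaning, shared by arrays 1 and 3 and by arrays 2 and 4, and each code holds both channel assignments. Whether the arrays of a code share an RNA preparation is not stated, so an n of 3 or 4 counts arrays and not preparations. Arrays 1 and 2 carried the precipitated RNA in channel 2, whereas arrays 3 and 4 carried it in channel 1. The zz prefix usually denotes a protein A tag, but the labels do not define it. They give no strain, growth condition or number of cultures, and a control precipitation without the tag was not analysed here. Differences between arrays may therefore be technical.

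Mex67 acts with its partner Mtr2 and carries mature mRNA through the nuclear pore, where both bind the phenylalanine-glycine repeats of pore proteins. Before that, transcripts are packaged during synthesis by the THO complex, remodelled by RNA helicases and separated by termination factors from RNA that is kept in the nucleus and degraded. The 5 genes code for proteins at these steps. The arrays measured their transcripts in the precipitated RNA against total RNA, and not the proteins or their binding to Mex67.

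A ratio above 1 is read here as a likely excess in the precipitated RNA. The labels word the comparison in that order, but do not state the direction or whether arrays 3 and 4 were turned before deposit. Arrays 2, 3 and 4 correlated at r = 0.756 to 0.889 over 581 to 742 features, and array 1 correlated with them at 0.127 to 0.239 over 92 to 203 features. Between 6.60% and 19.3% of the 12800 probes had a ratio on an array. For centring, the array's median over 596 features with ratios on at least 3 arrays was subtracted, and a centred log2 ratio of 0 is thus the typical tested feature. On array 1 only 110 of these features had a ratio. Means that include array 1 are given with and without it.

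DBP2 and NAB3 lay well below the median on arrays 2 to 4, and MFT1, GLE2 and NUP1 lay around it. On these 3 arrays the centred log2 ratios of DBP2 and NAB3 ranged from -3.55 to -2.16, and those of the other genes from -1.54 to 1.85, a gap that follows from grouping the genes by these values. On array 1 MFT1, GLE2 and NUP1 had no ratio, and NAB3, at -0.06, lay within their range on arrays 2 to 4. Centring within blocks of 400 consecutive probes removes differences between regions of the probe order. The ranges on arrays 2 to 4 were then -2.44 to -1.93 and -0.78 to 1.31. NAB3 on array 1, at -0.54, again lay within the range of MFT1, GLE2 and NUP1 on arrays 2 to 4. In a limma fit across all 596 features, 2 of the 5 genes, DBP2 and NAB3, passed at a Benjamini-Hochberg adjusted p under 0.05, both below the median. Of all features 46.1% passed, 24.8% below the median and 21.3% above it. The choice of the genes used these ratios, and nothing is read from this count. Without array 3 only DBP2 passed, among 29.9% of all features, and without array 2 DBP2 and MFT1 passed, among 38.3%. With arrays 3 and 4 turned against arrays 1 and 2 none of the 5 passed (1 of 596 features at an unadjusted p under 0.05). Array 2 correlated positively with arrays 3 and 4 as deposited. Turning arrays 3 and 4 thus sets shared values against each other in the mean, and the low count cannot tell the direction.

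**Figure D1:**
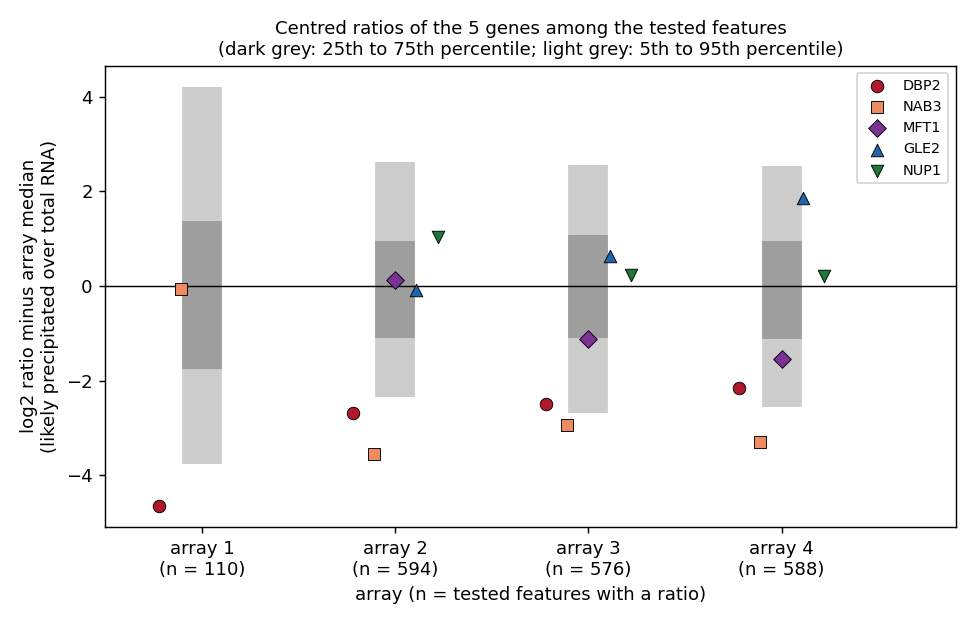
The log2 ratio minus the array median is plotted for each of the 5 genes on each array, over the spread of all tested features with a ratio there (dark grey, 25th to 75th percentile; light grey, 5th to 95th percentile). DBP2 and NAB3 sit between -3.55 and -2.16 on arrays 2 to 4, and on array 1, where the other genes have no ratio, DBP2 lies at -4.66 and NAB3 at -0.06.

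DBP2 codes for a DEAD-box RNA helicase that acts on nascent transcripts and is known to help load Yra1, Nab2 and Mex67 itself onto mRNA. Its transcript had centred log2 ratios of -4.66, -2.68, -2.49 and -2.16 on arrays 1 to 4. It was below the median on all 4 arrays, most on array 1. Of the features with a ratio, 2 of 110 lay lower on array 1, 18 of 594 on array 2, 36 of 576 on array 3 and 53 of 588 on array 4. The mean was -2.996 ± 1.13 (SD, n = 4), and without array 1 it was -2.44 ± 0.26 (SD, n = 3), 5.44-fold below the median. Among the 566 features with ratios on each of arrays 2 to 4, 25 had a lower mean.

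The value of DBP2 on array 1 moved most with the centring. On array 1, ratios were concentrated in parts of the probe order: the median block of 400 probes had a ratio for 1.38% of its probes, and the block of DBP2 for 43.25%. The median of that block on array 1 lay at -1.86 relative to the array median. Against its own block DBP2 had -2.79, -2.33, -2.44 and -2.01 on arrays 1 to 4, a mean of -2.39 ± 0.32 (SD, n = 4). Without array 1 that mean was -2.26 ± 0.22 (SD, n = 3). The 4 arrays thus lay closer together within the block. On arrays 2 to 4 that block had ratios for 13 to 31 probes, so the block median there rests on few spots.

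NAB3 codes for an RNA-binding protein that, with Nrd1 and the helicase Sen1, terminates short noncoding transcripts and hands them to the nuclear exosome. Its centred log2 ratios were -0.06, -3.55, -2.93 and -3.30 on arrays 1 to 4. Arrays 2 to 4 placed it far below the median, and array 1 placed it at the median. On arrays 2 to 4, 9 of 594, 20 of 576 and 10 of 588 features lay lower, against 51 of 110 on array 1. The mean of all arrays was -2.46 ± 1.62 (SD, n = 4), and without array 1 it was -3.26 ± 0.31 (SD, n = 3), 9.58-fold below the median. Among the 566 features on all of arrays 2 to 4, only 9 had a lower mean.

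Part of the distance of NAB3 from the median was shared by its block. The block median lay at -1.49 on array 2 and -1.23 on array 4 relative to the array median, with array 3 a little nearer to it, each over 20 to 31 probes with a ratio. Against the block, NAB3 had -2.06, -1.93 and -2.07, a mean of -2.02 ± 0.08 (SD, n = 3), or 4.06-fold below. On array 1 it had -0.54 against a block with 5 measured probes, of which 2 were its own. With array 1 included, the mean against the block was -1.65 ± 0.74 (SD, n = 4), or 3.14-fold below. NAB3 was also the gene whose side of the median on array 1 depended on the reference: against the median of all probes with a ratio on that array it lay at 1.25.

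MFT1 codes for a subunit of the THO complex, which couples transcription to packaging of the transcript for export. It had no ratio on array 1 and centred log2 ratios of 0.13, -1.13 and -1.54 on arrays 2 to 4. Array 2 placed it near the median, and arrays 3 and 4 placed it below. Of the features, 320 of 594, 139 of 576 and 95 of 588 lay lower. The mean was -0.84 ± 0.87 (SD, n = 3), so that the distance from the median was within the spread between arrays. The block of MFT1 had the largest share of measured probes on arrays 2 to 4 among all blocks, 80.25%, 31.25% and 43.5%, and its medians on arrays 3 and 4 lay at -0.82 and -0.75 relative to the array medians. Against the block MFT1 had 0.27, -0.30 and -0.78, a mean of -0.27 ± 0.53 (SD, n = 3).

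GLE2 codes for a WD-repeat pore protein that binds the nucleoporin Nup116 and is needed for mRNA export; it is the yeast counterpart of Rae1. It had no ratio on array 1 and centred log2 ratios of -0.08, 0.62 and 1.85 on arrays 2 to 4. The values ran from the median on array 2 to the upper part of array 4, where 515 of 588 features lay lower. The mean was 0.80 ± 0.98 (SD, n = 3), again within the spread between arrays, and without array 4 it was 0.27. Its SD was larger than that of 505 of the 566 features on all of arrays 2 to 4, whose median SD was 0.40. Against its block, whose medians lay 0.55 to 0.59 above those of the arrays, GLE2 had -0.67, 0.06 and 1.31, a mean of 0.23 ± 0.999 (SD, n = 3).

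NUP1 codes for a nucleoporin of the nuclear basket with phenylalanine-glycine repeats, which takes part in transport of protein and mRNA. It had no ratio on array 1 and centred log2 ratios of 1.02, 0.23 and 0.21 on arrays 2 to 4. It lay above the median on each of these arrays, most on array 2, with 450 of 594, 319 of 576 and 324 of 588 features lower. The mean was 0.49 ± 0.46 (SD, n = 3), about the size of the spread between arrays. The block medians lay at -0.30 to -0.02 relative to the array medians, and against the block NUP1 had 1.05, 0.27 and 0.51, a mean of 0.61 ± 0.40 (SD, n = 3). NUP1 was the gene among the 3 near the median that stayed on 1 side of it on arrays 2 to 4 under both centrings.

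**Figure D2:**
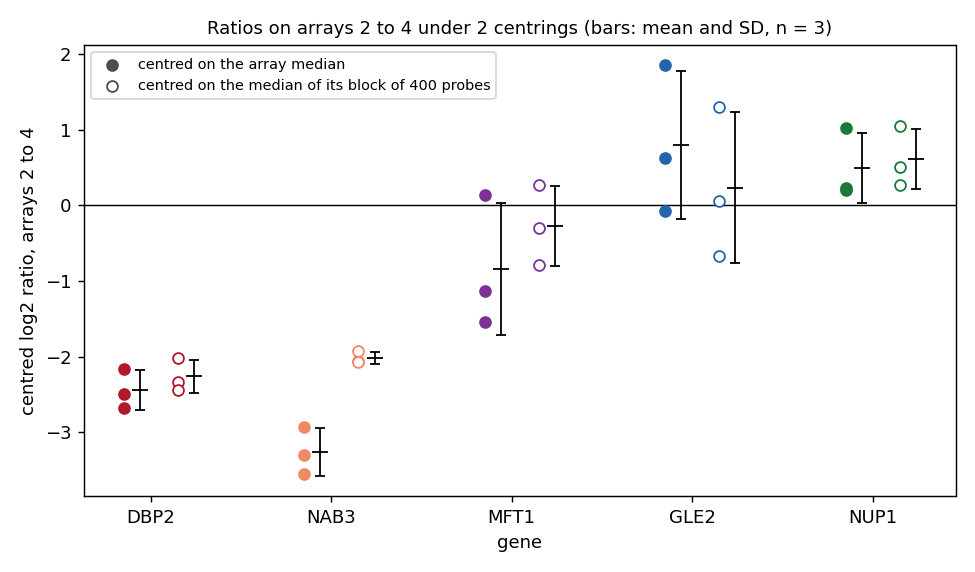
Centred log2 ratios on arrays 2 to 4 are plotted for each gene, against the array median (filled) and against the median of its block of 400 probes (open), with bars for the mean and SD over the 3 arrays. NAB3 moves from a mean of -3.26 to -2.02, DBP2 from -2.44 to -2.26, MFT1 from -0.84 to -0.27, GLE2 from 0.80 to 0.23 and NUP1 from 0.49 to 0.61.

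Each gene had a pair of probes with consecutive numbers, 10 probes in all, and 25 of their 40 spots held a ratio. NAB3 was the best covered, with 8 of 8 spots. DBP2 and NUP1 had 5 of 8 and MFT1 4 of 8. GLE2 had 3 of 8, all from 1 probe. The level of DBP2 on array 3 came from its first probe and those on arrays 2 and 4 from its second, while both gave a ratio on array 1. For MFT1 both probes gave a ratio on array 2, only the first on array 3 and only the second on array 4. For NUP1 both gave one on arrays 2 and 3 and only the first on array 4.

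Where both probes of a gene had a ratio, they differed by 0.06 to 0.68 log2. The probes of NAB3 differed by 0.06, 0.11 and 0.08 log2 on arrays 2 to 4 and by 0.50 on array 1. Among all genes with 2 measured probes the median difference was 0.53, 0.36 and 0.34 on arrays 2 to 4 and 0.50 on array 1. The difference was 0.58 for DBP2 on array 1, 0.68 for MFT1 on array 2, and 0.39 and 0.20 for NUP1 on arrays 2 and 3. The probes of DBP2 and MFT1 thus lay further apart than the median pair on those arrays. Those of MFT1 on array 2 lay on either side of the array median. So did those of NAB3 on array 1, at centred log2 ratios of -0.31 and 0.19. For NAB3 the gap between array 1 and the other arrays was thus far larger than the gap between its probes. Probes on the same array share its RNA and its hybridisation, so the difference between them says nothing of the spread between precipitations.

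**Figure D3:**
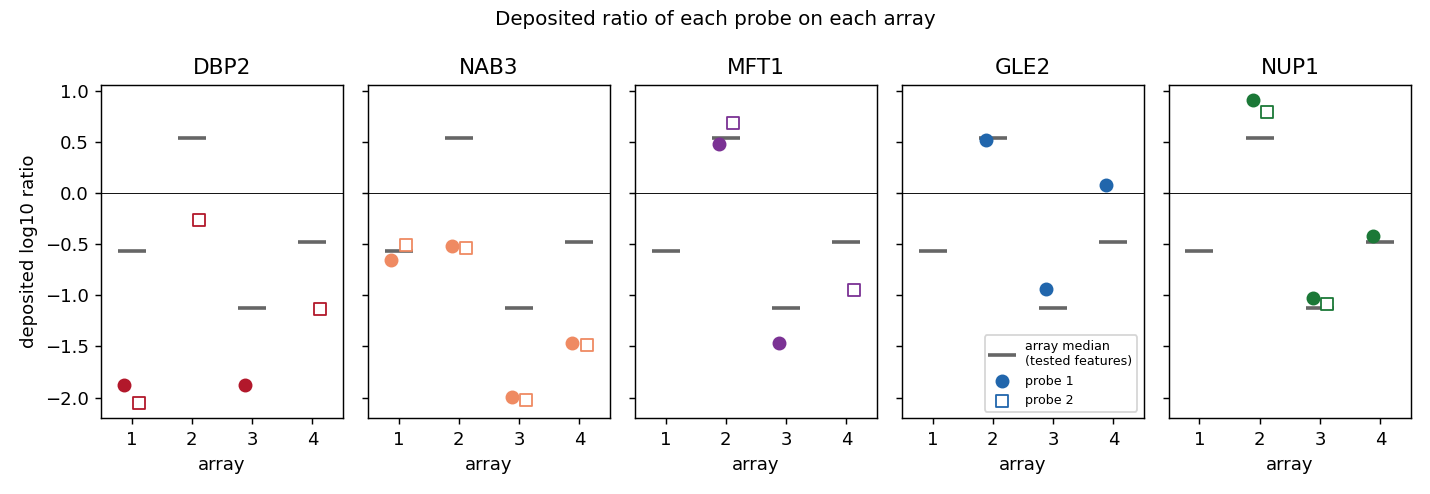
The log10 ratio of each probe as deposited is plotted against the array, 1 panel per gene, with the median of the tested features on each array as a grey bar. NAB3 has both probes on all 4 arrays and lies on the bar on array 1 and below it on arrays 2 to 4, and GLE2 has 1 probe with values, on arrays 2 to 4.

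The values as deposited, before the array medians were subtracted, were as follows. The log10 ratios of NAB3 were -0.584, -0.530, -2.01 and -1.48 on arrays 1 to 4, and those of DBP2 were -1.97, -0.267, -1.87 and -1.14. On arrays 2 to 4 MFT1 had 0.580, -1.46 and -0.947, GLE2 had 0.516, -0.936 and 0.0737, and NUP1 had 0.848, -1.05 and -0.422. DBP2 and NAB3 were below 0 on every array, and the other genes were above 0 on array 2 and below it on array 3. The medians of the tested features, which the centring removed, were log2 -1.88, 1.79, -3.73 and -1.61 on arrays 1 to 4.

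Differences between the genes on the same array do not depend on the array median. On arrays 3 and 4 the genes ran, from high to low, GLE2, NUP1, MFT1, DBP2 and NAB3, and on array 2 NUP1, MFT1, GLE2, DBP2 and NAB3. GLE2 minus NUP1 was -1.10, 0.39 and 1.65 log2 on arrays 2 to 4, so these neighbours had no stable order. MFT1 minus NUP1 was -0.89, -1.36 and -1.75, a mean of -1.33 ± 0.43 (SD, n = 3), and -0.88 ± 0.37 centred within blocks.

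MFT1 and DBP2 are the neighbours between the higher and the lower genes. DBP2 minus MFT1 was -2.81, -1.36 and -0.62 log2, a mean of -1.60 ± 1.11 (SD, n = 3), or -1.99 ± 0.70 centred within blocks. The sign was the same on all 3 arrays, with a spread smaller than the size of the mean. The genes were grouped by their values on these arrays, so the shared sign follows from the grouping. Neither the sign nor the mean against its spread is read as evidence of a separation. DBP2 minus NAB3 was 0.87, 0.44 and 1.14, a mean of 0.82 ± 0.35 (SD, n = 3), but -0.24 ± 0.28 centred within blocks and -4.60 on array 1. The order of the lower pair thus turned with the centring and with the array.

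For each gene, the 3 genes with the nearest centred log2 ratios were taken, by root mean square distance over the arrays on which it had a ratio. With 3 or 4 values a gene, such distances are descriptions. Among 72 genes on all 4 arrays, the nearest to DBP2 were the asparaginase gene ASP3-1 (0.93), the histone deacetylase subunit gene HDA2 (1.30) and the elongation factor gene TEF2 (1.69), against a median distance of 3.50. Nearest to NAB3 were GID10 (0.78) and VID30 (1.31), both of the GID ubiquitin ligase, and the protease gene MKC7 (1.60), against a median of 3.32. GID10 had 0.23, -2.58, -2.56 and -2.19 on arrays 1 to 4 and VID30 1.24, -1.79, -2.20 and -2.05. The distance includes array 1, so their likeness to NAB3 there follows from how they were picked. Centred within blocks the order turned, with GID10 at 1.61, VID30 at 0.82 and MKC7 at 1.47 from NAB3, while ASP3-1, HDA2 and TEF2 lay at 1.04, 1.70 and 2.28 from DBP2. ASP3-1 and TEF2 have near-identical copies in the genome, which can share signal on an array.

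Over arrays 2 to 4, 470 genes could be compared with each of the others. Nearest to MFT1 were ERO1, an oxidoreductase of the endoplasmic reticulum (0.19), the ribosomal protein gene RPL28 (0.25) and the acyltransferase gene ICT1 (0.32), against a median of 1.498. For GLE2 they were the trehalase gene NTH2 (0.19), the splicing factor gene PRP18 (0.24) and IZH3 (0.35), against 1.52, and for NUP1 the clamp loader gene RFC4 (0.13), THP3 (0.15) and PHM7 (0.18), against 1.27. Centred within blocks, RFC4 and THP3 lay at 0.82 and 1.40 from NUP1 and PHM7 at 0.17. IZH3 lay at 1.06 from GLE2 and the remaining genes of this paragraph at 0.38 to 0.51 from theirs.

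The 5 genes stand in for pathways of which most genes had no ratio. In 10 lists of mRNA packaging, export, pore, termination, helicase and import genes, 134 of 136 genes had a probe and 31 had a ratio on at least 1 array, 23.1% against 31.6% of all genes. A ratio on at least 3 arrays was held by 11 (8.21%, against 8.99%). Of these 11, 3 passed below the median and 0 above it in the limma fit across all features (24.8% and 21.3% of all features), namely DBP2, NAB3 and KAP104. The median of their means was log2 -0.76, against -0.01 for all named genes tested. With the 5 genes left out, 1 of 6 passed, and the median was -0.49.

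**Figure D4:**
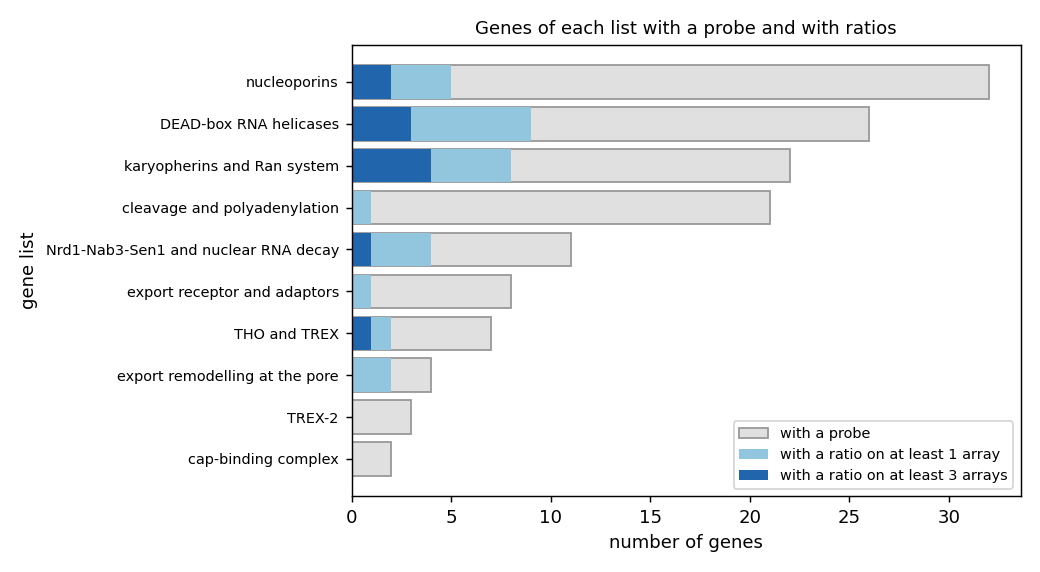
Bars give, for each list, the number of genes with a probe (grey), with a ratio on at least 1 array (light blue) and with a ratio on at least 3 arrays (dark blue). Of 32 nucleoporin genes 5 have a ratio and 2 have one on 3 arrays, and the cap-binding complex and TREX-2 have none.

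The direct partners of Mex67 were hardly measured. Neither MEX67 nor YRA1, for an adaptor protein of Mex67, had a ratio, and MTR2 had a centred log2 ratio of -2.05 on array 1 alone. Of 7 THO and TREX genes, MFT1 and SUB2 had a ratio. SUB2, the helicase that joins THO to Yra1, was measured on arrays 2 and 4 only, at 0.26 and -0.51, on either side of the median as MFT1 was. NRD1 and SEN1, the partners of NAB3 in termination, had no ratio. In the same list TRF5, a poly(A) polymerase of nuclear RNA decay, had -1.27 and -0.98 on arrays 2 and 4, below the median on both. PTI1, of the cleavage and polyadenylation machinery, had -0.25 and -0.84 on arrays 1 and 2 and was the only gene of 21 in its list with a ratio. SUB2, TRF5 and PTI1 lay just outside the limit of 3 arrays that the 5 genes met, and MFT1, GLE2 and NUP1 lay just inside it.

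Among 26 DEAD-box helicase genes, DBP2 was the lowest of the 3 with ratios on at least 3 arrays. DED1, a helicase of translation initiation, had 0.47, 0.94 and 0.85 on arrays 2 to 4, a mean of 0.76 ± 0.25 (SD, n = 3), and DBP8, of ribosome assembly, had -0.53, -1.81 and -0.56, a mean of -0.97 ± 0.73 (SD, n = 3). Both lay above DBP2 on these arrays, as did most features: 25 of 566 had a lower mean than DBP2. Neither DED1 nor DBP8 passed in the limma fit, in which 46.1% of all features did. TIF1, for the initiation factor eIF4A, had -0.51 and -0.73 on arrays 2 and 4; it has a near-identical copy, TIF2.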

How the data were processed

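The authors deposited log10 ratios: 18.9% of the values equalled log10 of a ratio of whole numbers (the smaller up to 100) within 1e-09, against 0.185% read as log2. How the authors corrected background, normalized and dropped values is not given in the sources used here. GEO's platform annotation, possibly out of date, named the probes and was updated through Entrez identifiers to the RefSeq gene table (assembly R64): 11138 of 12800 probes had 1 symbol, 0 several, 1662 none here, and 11128 identifiers matched. Repeated rows (2) and the probes of a gene were averaged. Features (genes or unnamed probes) with ratios on at least 3 arrays, both channel assignments included, were converted to log2, centred, and fitted against 0 with limma 3.58.1 (statmod 1.5.0, R 4.3.3), tested on simulated data. Python 3.11.15, numpy 2.4.6, pandas 2.3.3 and matplotlib 3.10.9 did the rest. Error terms are SDs over arrays, numbered in accession order, and the number of arrays limits the precision.

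The genes, the 10 lists and the tests were chosen with earlier results of these data known. Named were the 5 genes, MEX67, MTR2, YRA1, up to 15 list genes with ratios on at least 2 arrays, and the 3 genes nearest each of the 5. NUP2, NIC96, ASM4, NRD1, SEN1 and TIF2 were named outside this rule, after their values, or the lack of one, were seen. Alternatives covered centring, scaling, direction, probes, channel assignment, the code in the titles, left-out arrays and a variance trend. Turned arrays in the fit, and arrays 2 to 4 centred within blocks, were added after seeing the data.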

Additional observations from a re-analysis of the deposited data

How the results depend on the processing

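Without centring the mean log2 ratios were -4.35 for DBP2, -3.82 for NAB3, -2.03 for MFT1, -0.38 for GLE2 and -0.69 for NUP1. None of the 5 genes then passed, and 0 of 596 features did (limma; 52 at an unadjusted p under 0.05). With arrays 3 and 4 turned against arrays 1 and 2, NAB3, MFT1 and GLE2 changed sign, to 0.65, 0.93 and -0.85, while DBP2 had -0.67 and NUP1 0.19; 0 of the 5 genes and 0 of 596 features passed (limma; 1 feature at an unadjusted p under 0.05). The low count with turned arrays follows from the positive correlation of array 2 with arrays 3 and 4 as deposited. In a fit to features on all 4 arrays 1 of the 2 testable genes passed, DBP2, among 16 of 80 features. With 1 array left out, 1 or 2 of the 5 genes passed, and the features called numbered 155 to 342 of 596 against 275 with all arrays. Over the same omissions the mean was -3.28 to -2.44 for DBP2 and -3.26 to -2.10 for NAB3. For MFT1, GLE2 and NUP1, with no ratio on array 1, it was -1.33 to -0.50, 0.27 to 1.24 and 0.22 to 0.63. The other alternatives moved each mean by less than its SD. In the fit they left 2 genes called, among 34.6% to 47.5% of the features tested. The second probe of GLE2 gave no value. No paired analysis was possible because there is a single group of arrays, so no groups share replicate numbers. The pairing of precipitated with total RNA on an array is already held in each ratio. The title code as a random block left 2 genes called, among 44.1% of all features. Averaging the arrays of a code moved each mean by less than its SD. Signal over background was not used here, and the causes of these shifts were not tested.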

Other observations

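Among the genes for import, export and the Ran system, which share the pore with Mex67, 4 of 22 had ratios on at least 3 arrays. KAP104, the import receptor of the mRNA-binding proteins Nab2 and Hrp1, had centred log2 ratios of -1.39, -1.18 and -1.41 on arrays 2 to 4, a mean of -1.33 ± 0.13 (SD, n = 3), and passed below the median in the limma fit. GSP1, the yeast Ran, had -0.18, -1.32 and -0.76, the exportin gene MSN5 had -0.28, 0.41 and -0.77, and the karyopherin gene KAP122 had 0.91, -0.78 and 0.00475, and none of these 3 passed. Of all features 24.8% passed below the median and 21.3% above it, and nothing is read from these calls. On arrays 2 and 4 KAP95, the yeast importin beta, had 1.16 and 0.15, and the karyopherin gene SXM1 had -0.55 and -0.96.

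The other nucleoporin genes with a ratio had it on array 2 alone, and they are named here after their values were seen. NUP2 lay at -1.94, NIC96 at -1.02 and ASM4 at -0.63, all below the array median, while GLE2 and NUP1 lay at -0.08 and 1.02 on the same array. With 1 array each, these values have no replicate check.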
